A study of Mus musculus with 2 samples.

Results

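Mgp encodes matrix Gla protein, a small protein of the extracellular matrix, and is here 1 gene of the 28651 listed for the inguinal white adipose tissue (iWAT) library and of the 29958 listed for the interscapular brown adipose tissue (iBAT) library. It was chosen by its measured level in these same data, which differed between depots and between stromal cells, so every level below is a description, and the deciles of cells were selected on Mgp per UMI. The members of the comparison within stroma were the 16758 Pdgfra-positive cells of 29962 iWAT barcodes and the 25097 Pdgfra-positive cells of 28636 iBAT barcodes. Pdgfra encodes a platelet-derived growth factor receptor of mesenchymal cells.

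Matrix Gla protein is an inhibitor of calcification in arteries and cartilage. The vitamin K-dependent carboxylase converts some of its glutamate residues to gamma-carboxyglutamate (Gla), which binds calcium ions, and the protein also binds bone morphogenetic proteins (BMPs). It is best known from vascular smooth muscle cells and chondrocytes, and fibroblasts and endothelial cells can make it as well.

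Stromal vascular cells came from pooled depots of wild-type C57BL/6N mice, 8 to 12 weeks old by the labels, and were grown to 80% confluency. By the labels, each depot had 4 cultures of 48 h, untreated or with FGF1, FGF2 or FGF8 at 5.5 nM, and 10000 tagged cells of each culture were loaded together, which gave 1 library for iWAT and 1 for iBAT. The series design text and the published methods name fewer factors, and the published age range differs. The cells carry no treatment assignment in the files used here, so each library is 1 pooled sample and no FGF effect was compared. With 1 library a depot, no difference has a replicate check, no test was made, and every interval below is a 95% interval for counting error only. Xist, transcribed from the inactive X chromosome of female cells, stood at 345 UMIs per 1000000 UMIs (CPM) in iWAT and at 0.0505 CPM in iBAT, and the labels give no sex. Depot, sex and library therefore cannot be told apart.

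The Mgp gene lies on the minus strand of chromosome 6, from 136849433 to 136852821 of mouse build GRCm39, and GENCODE M39 lists 6 transcripts and 0 overlapping genes there. Transcript Mgp-201 has 4 exons. Its coding sequence has 315 bases and 104 codons before the stop. The first 100 codons are shown, as given by GENCODE, because the residues that make this a Gla protein can be read from them, and all 8 in-frame glutamate codons (GAA or GAG) are in capitals. The annotation used does not say which of them are carboxylated.
Mgp-201 coding sequence: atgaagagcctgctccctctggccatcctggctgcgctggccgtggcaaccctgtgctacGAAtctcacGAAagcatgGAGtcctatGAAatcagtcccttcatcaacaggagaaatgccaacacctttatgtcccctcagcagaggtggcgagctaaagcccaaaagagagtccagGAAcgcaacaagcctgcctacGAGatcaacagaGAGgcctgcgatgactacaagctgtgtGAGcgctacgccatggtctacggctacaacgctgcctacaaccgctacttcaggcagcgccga

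The cell filter kept 29744 iWAT and 28215 iBAT cells, with medians of 16204 and 27235 unique molecular identifiers (UMIs, 1 per captured transcript) per kept cell. The libraries had 8 barcodes in common. A cell was placed in a class other than stroma when at least 3 markers of that class were detected and made up at least 5 of every 10000 UMIs. The gate cutoffs were set after marker levels had been seen. In either library, every class other than stroma that held cells had at least 8 of its markers 3-fold or more above the rest of the library. The gate chose cells by these same markers, so this excess follows from it and is no check of the class names. The Pdgfra-positive cells, chosen by that gene, had only Pdgfra 3-fold or more above the rest. In them 8 (iWAT) or 7 (iBAT) of the 8 stromal markers stood at 10 CPM or more. No cell met the mesothelial gate, and no iBAT cell met the epithelial gate.

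Over all kept cells, the iWAT level of Mgp was 25.1 CPM (24.6 to 25.5) and the iBAT level 580 CPM (578 to 582), which is 23.1-fold higher. Pdgfra-positive cells held 73.6% of the iWAT and 90.9% of the iBAT Mgp UMIs. In these cells the level was 29.4 CPM (28.8 to 29.99) in iWAT, from 9260 UMIs, and 577 CPM (576 to 579) in iBAT, from 417399 UMIs. The iBAT level was thus 19.6-fold higher (19.2 to 20.1). Of the 6866 genes at 20 CPM or more, 82 (1.19%) were at least 4-fold higher in iBAT, and Mgp ranked 13 in that direction. The median gene differed by 0.05 on the log2 scale. Cells without a Pdgfra UMI and without another class had 21.2 CPM (iWAT) and 488 CPM (iBAT) of Mgp, and their ratio was 23.1 (22.1 to 24.0).

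**Figure D1:**
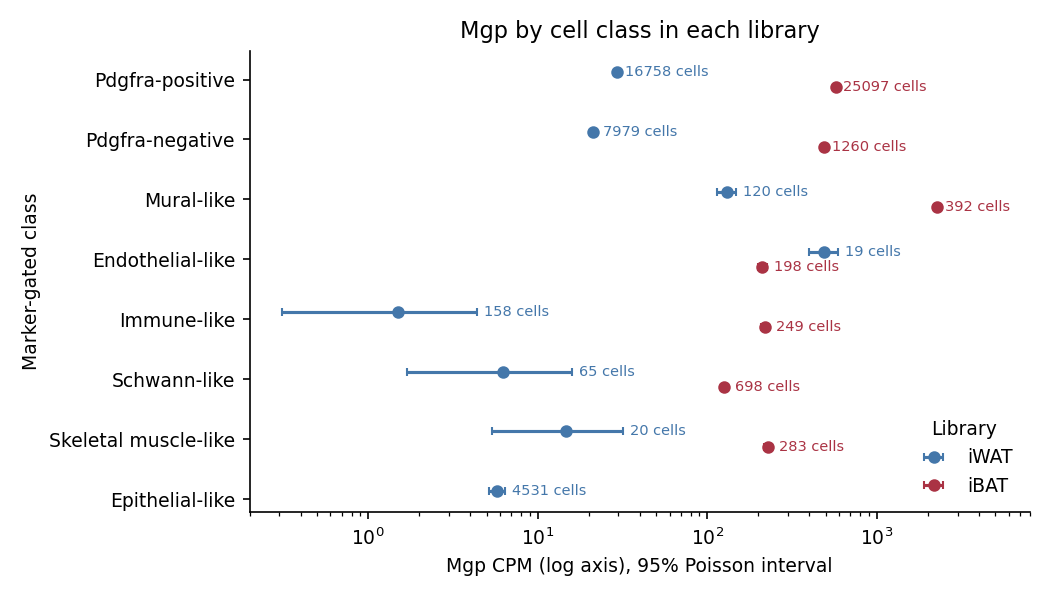
Mgp level in CPM (log axis) by marker-gated class in the iWAT and the iBAT library, with 95% Poisson intervals and the number of cells. Mural-like cells had the highest iBAT level (2274), and the iWAT endothelial-like value (489) came from 1 of 19 cells.

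The highest iBAT level was in the mural-like cells, which carry pericyte and smooth muscle markers such as Rgs5 and Notch3. The 392 cells of this class held Mgp at 2274 CPM (2244 to 2305), 3.94-fold (3.89 to 3.99) the level of iBAT Pdgfra-positive cells, and 2213 CPM without the cell of most UMIs. Rgs5, a regulator of G protein signalling that marks pericytes, stood at 177 CPM in them and at 1.97 CPM in the rest of the library. It belongs to the markers of the gate, so this contrast is no check of the class. With the gate at 10 marker UMIs per 10000, the class held 128 cells and their Mgp level was 2916 CPM.

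In iWAT the 120 mural-like cells stood at 131 CPM (115 to 149), 4.46-fold (3.90 to 5.07) the Pdgfra-positive level. That value rested on few cells. Of the 236 Mgp UMIs, 117 were in 1 cell, and without it the level was 66.5 CPM. With the stricter gate the class held 39 cells with 10 Mgp UMIs, at 22.3 CPM. This was 0.746 of the Pdgfra-positive level under that gate, so the order turned. The iBAT over iWAT ratio in mural-like cells was 17.4 (15.3 to 19.8), 33.3 without the top cell of this class in each library and 131 with the stricter gate. Esam, an endothelial adhesion molecule, was also among the 10 leading genes of the iWAT mural-like cells.

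The other iBAT classes lay below stroma. Skeletal muscle-like cells stood at 229 CPM (218 to 242), immune-like cells at 219 CPM (208 to 231) and endothelial-like cells at 212 CPM (199 to 225), and these neighbours did not differ beyond their intervals. Schwann-like cells were lowest at 126 CPM (120 to 133), 0.219 of the Pdgfra-positive level. With the stricter gate the Schwann-like class held 562 cells in place of 698, at 53.6 CPM. Macrophages and Schwann cells are not known as main sources of Mgp. These levels are not read as expression, since free RNA from stroma was not separated from the cells' own.

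Mgp was also set beside collagen I. Per 1000 UMIs of Col1a1, the main fibroblast collagen chain, iBAT Pdgfra-positive cells had 93.5 Mgp UMIs. Immune-like cells had 150, endothelial-like cells 178, skeletal muscle-like cells 138 and mural-like cells 142. Schwann-like cells had 15.3, with their own Col1a1 at 8262 CPM. Free Col1a1 was not separated from the cells' own either, and the source of the Mgp UMIs was not tested.

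The iWAT classes outside stroma held few Mgp UMIs. The 4531 epithelial-like cells stood at 5.76 CPM (5.15 to 6.43), 5.10-fold (4.56 to 5.72) below Pdgfra-positive cells. Immune-like cells held 3 UMIs in 158 cells (1.51 CPM, 0.310 to 4.40), Schwann-like cells 4 UMIs in 65 cells (6.25 CPM, 1.70 to 16.0) and skeletal muscle-like cells 6 UMIs in 20 cells (14.7 CPM, 5.40 to 32.0). The last 2 classes did not differ from epithelial-like cells beyond these intervals. All 106 UMIs of the 19 endothelial-like cells were in 1 cell, which sets their 489 CPM, and the other cells of that class had 0. The iBAT over iWAT ratio was 20.2 (7.88 to 74.3) in Schwann-like, 15.6 (7.14 to 42.5) in skeletal muscle-like and 146 (49.7 to 707) in immune-like cells. Leaving out the top cell of the class in each library moved the skeletal muscle-like ratio to 80.1 and the immune-like ratio to 368, and the stricter gate moved the immune-like ratio to 70.3 and the Schwann-like ratio to 8.14. The endothelial-like ratio was 0.433 (0.354 to 0.535), set by that 1 iWAT cell.

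The share of stromal cells with an Mgp UMI was compared at equal depth. Before thinning, 15.6% of iWAT and 92.5% of iBAT Pdgfra-positive cells had at least 1 Mgp UMI, at median depths of 18240.5 and 27936 UMIs. With every cell thinned at random to 10000 UMIs, which left out 1645 shallower iWAT and 0 iBAT cells, the shares were 11.3% (10.8 to 11.9) and 79.7% (79.2 to 80.2). The matched share in iBAT immune-like cells was 44.2% (37.9 to 50.6), and in Schwann-like cells, the lowest, 32.4% (28.9 to 36.0), at median depths of 23766 and 15462 UMIs. In iWAT epithelial-like cells it was 3.25% (2.62 to 3.99), at a median of 11054 UMIs, with 1825 of 4531 cells left out as shallower. Mural-like cells lay above stroma, at 22.9% (14.95 to 32.6) of 96 iWAT cells and 88.0% (84.4 to 91.1) of 392 iBAT cells. How much of these shares is free RNA was not tested.

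**Figure D2:**
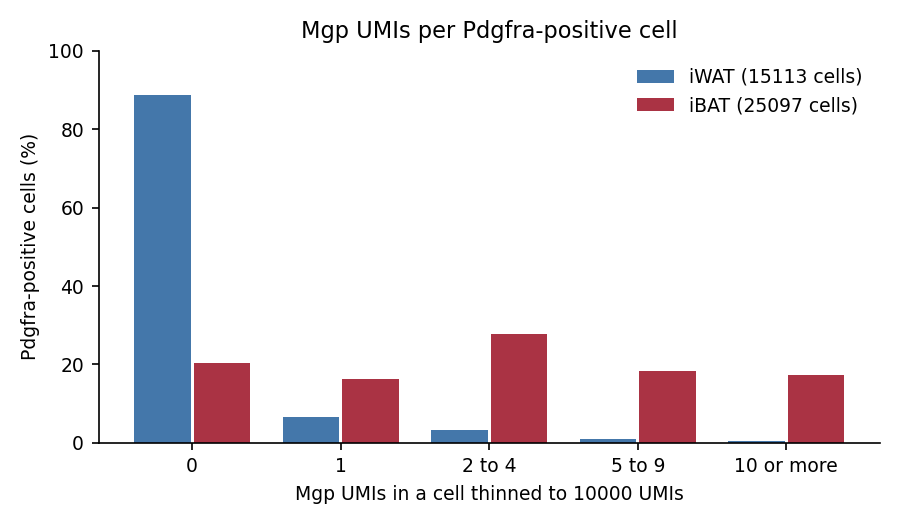
Share of Pdgfra-positive cells (%) by number of Mgp UMIs after each cell was thinned to 10000 UMIs, in iWAT (15113 cells) and iBAT (25097 cells). No Mgp UMI was seen in 88.7% of iWAT and 20.3% of iBAT cells, and 10 or more in 0.543% and 17.2%.

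Mgp was spread unevenly over stromal cells. The 167 iWAT cells with the most Mgp UMIs, 1% of the class, held 41.3% of its Mgp UMIs, and the top 10% held 89.9%. In iBAT the top 250 cells held 14.1% and the top 10% held 49.5%. The highest single cell had 155 Mgp UMIs in iWAT and 904 in iBAT, against medians of 0 and 7. After thinning, the variance of Mgp was 8.31 times its mean in iWAT, rank 47 of 6393 genes, where the median gene had 1.12. In iBAT it was 20.6 times the mean, rank 17 of 6503 genes with a median of 1.11.

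Pdgfra-positive cells were then ordered by the summed UMIs of 8 lists of state genes, and Mgp was compared between the highest and the lowest quintile. These quintiles are ranges of a score and not cell types, and the lists overlap in cells. A wide gap went with the list of committed preadipocytes (Fabp4, Pparg, Cxcl14, Col15a1, Col4a1 and Lpl), genes raised as precursors enter the adipocyte lineage. Most UMIs of this list were of Cxcl14 and Col4a1, at 1057 and 974 CPM in iWAT Pdgfra-positive cells against 43.7 CPM for Fabp4 and 10.9 CPM for Pparg. Mgp stood at 10.1 CPM in the lowest and 48.8 CPM in the highest iWAT quintile, a 4.82-fold difference, and at 384 and 817 CPM in iBAT, 2.13-fold. Without Col15a1 in the list the difference was 2.65-fold in iWAT and 1.84-fold in iBAT. In iWAT it was then a log2 difference of 1.41, smaller in size than the -1.76 of the Dpp4 list. Gene by gene between Mgp deciles, as given below, only Col15a1 and Col4a1 of this list were above 0 in iBAT. Lpl, Pparg, Cxcl14 and Fabp4 were below 0 there (-0.55 to -0.06), while in iWAT all members were above 0, Pparg by 0.03.

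The list of Dpp4-positive interstitial progenitors went the other way. From the lowest to the highest quintile of that list, Mgp went from 50.7 to 14.9 CPM in iWAT (0.294 of the level) and from 740 to 431 CPM in iBAT (0.583). Most UMIs of that list were of Anxa3, an annexin gene, whose level in Pdgfra-positive cells was 331 CPM in iWAT against 23.5 CPM for Dpp4, and 310 against 2.18 CPM in iBAT. Contractile genes such as Acta2 and Tagln, which mark myofibroblasts, showed the same order, with 43.7 and 17.0 CPM in iWAT and 717 and 455 CPM in iBAT. Both lists therefore had lower Mgp in their high quintiles in either library. The high quintiles of both lists were the deeper cells, with medians of 19911 against 15651 UMIs for the contractile list in iWAT. On cells thinned to 10000 UMIs, their log2 ratios kept their direction but were smaller in size. The Dpp4 list then had 0.413 of the level in iWAT and 0.692 in iBAT, and the contractile list 0.413 and 0.648.

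Along the interferon response list Mgp stood at 17.8 and 42.9 CPM in iWAT (2.41-fold), while in iBAT it stood at 569 and 646 CPM (1.14-fold), where 67.4% of cells had no UMI of that list. On cells thinned to 10000 UMIs these ratios were 1.74 and 1.07. Along the mitotic list Mgp was lower in the high quintile in iWAT, 23.6 against 40.2 CPM, and stood at 589 and 581 CPM in iBAT. That iWAT ratio was 0.587, and 0.765 with a Pdgfra gate of at least 2 UMIs. Along the list named for Gdf10 and Meox2, the ratio was 0.841 in iWAT and 0.881 in iBAT. Most UMIs of that list were of F3, the tissue factor gene. In iWAT Pdgfra-positive cells F3 stood at 520 CPM, against 17.5 CPM for Gdf10 and 3.86 CPM for Meox2. The score thus mainly ordered cells by F3. Between Mgp deciles F3 was lower and the other members were higher with Mgp in both libraries, as given below. The list named for Il11 and Grem1 gave 0.92 in iWAT and 1.26 in iBAT. The adipogenic list could order few cells, since 99.5% of iWAT and 94.5% of iBAT cells had no UMI of it, and its ratios were 0.981 and 1.08. Whether the libraries differ in these ratios was not tested.

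**Figure D3:**
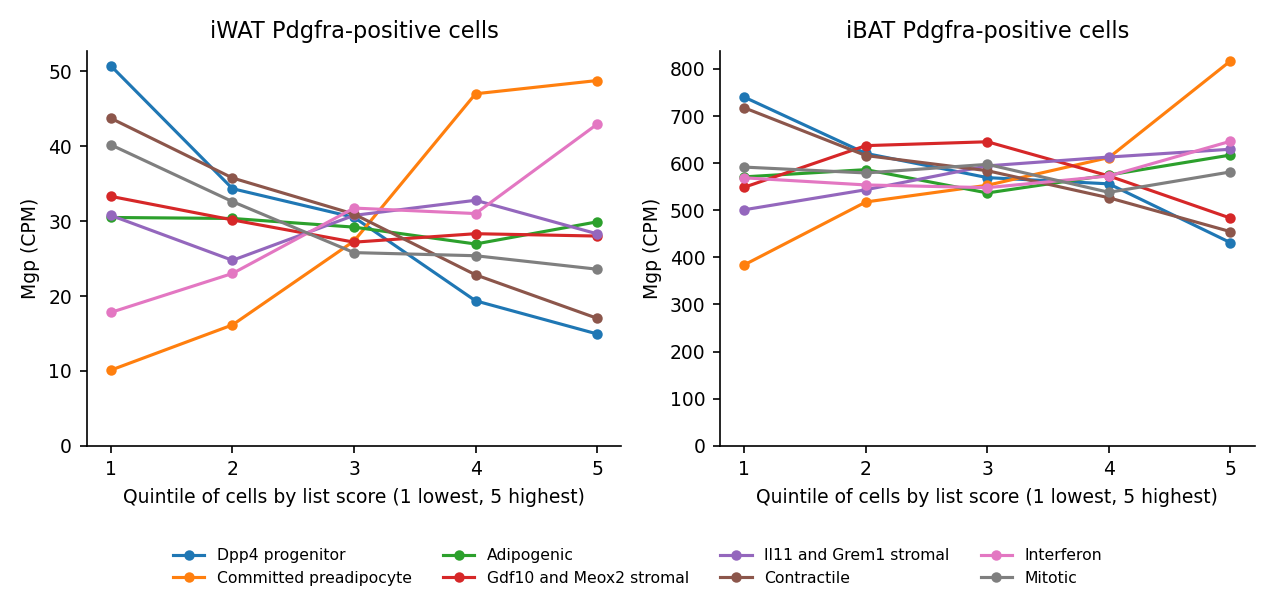
Mgp level in CPM in each quintile of Pdgfra-positive cells, ordered by the summed UMIs of 8 state lists, in iWAT and iBAT (separate scales). In both panels Mgp was higher in the high quintile of the committed preadipocyte list and lower in the high quintile of the Dpp4 progenitor and contractile lists. In iBAT only Col15a1 and Col4a1 of the committed preadipocyte list were higher in the high than in the low Mgp decile.

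To see which genes went with Mgp, the highest and the lowest decile of Pdgfra-positive cells by Mgp per UMI were compared gene by gene. Mgp itself defined the groups and is no result. The iWAT deciles held 1675 cells each. The low one had 0 Mgp UMIs, as did 84.4% of the class, so its cells were drawn at random among those, and the high one stood at 281 CPM. The edge of the high decile was at 61.03 CPM, with the next cell outside at 60.97 CPM, and 26.8% of its cells had 1 Mgp UMI. The iBAT deciles held 2509 cells each, at 8.46 and 2830 CPM. Their edges were at 30.80 CPM (next outside 30.81) and 1365.5 CPM (next outside 1365.3). Median depth was 17861 (low) and 16294 (high) UMIs in iWAT and 29429 and 27218 UMIs in iBAT.

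Few genes differed by 2-fold. Among genes with at least 20 CPM in either decile, 36 of 6569 (0.548%) were at least 2-fold higher and 14 (0.213%) at least 2-fold lower in Mgp-high iWAT cells. In iBAT 43 of 6620 (0.65%) were higher and 15 (0.227%) lower. Over the 6192 genes measured in both, the log2 ratios had a Pearson r of 0.486 across genes, which are not independent replicates. Of those past 2-fold there, 12 were higher in both libraries, 46.2% of the 26 iWAT and 42.9% of the 28 iBAT genes. Acta1 and Irx1 were lower in both, Irx1 with 13.3 CPM over the iBAT class and 20 CPM reached in the low decile only, and 0 genes were past 2-fold in opposite directions. Between quintiles in place of deciles, 0 iWAT genes were 2-fold lower, with Acta1 at -0.56 and Irx1 at -0.79, and Irx1 had -0.99 in iBAT. The iWAT quintiles held 3351 cells each, and 2609 cells of the class had an Mgp UMI. The high quintile thus also held cells with 0. A gene below 20 CPM over the whole class enters these counts only through the decile where it is higher. Genes past 2-fold that passed in that way are given by their values and read no further. Among the 12 higher in both, these include Esm1, Aldh1a2, Enpp1 and Cmklr1 in iWAT, with 14.2 to 16.8 CPM over the class. With under 1% of genes past 2-fold in either direction, 0 members past it in a short list is no result about that list.

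**Figure D4:**
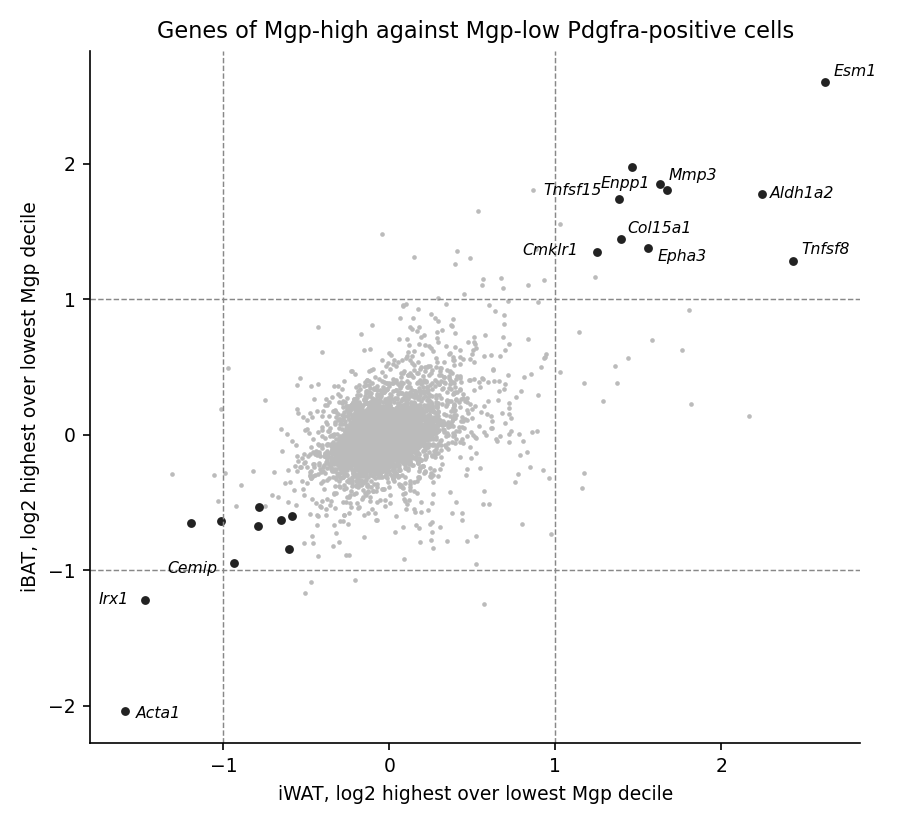
Log2 ratio of each gene between the highest and the lowest Mgp decile of Pdgfra-positive cells, iWAT (horizontal) against iBAT (vertical), for genes measured in both. Dashed lines mark 2-fold, black points are the 20 genes that rank highest and lowest, and Esm1 (2.63 and 2.60) and Acta1 (-1.59 and -2.04) lie at the ends. In iWAT Esm1 reached 20 CPM in the high decile only.

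Esm1, a secreted proteoglycan known as endocan and best known from endothelium, had the largest ratio shared by both libraries. Over the iWAT class it had 15.4 CPM, and it reached 20 CPM there in the high decile only. It stood at 8.93 CPM in low and 55.1 CPM in high iWAT cells, and at 13.9 and 84.5 CPM in iBAT. The log2 ratios were 2.63 (2.44 to 2.82) and 2.60 (2.51 to 2.70). The 10 endothelial markers summed to 15.6 CPM in low and 15.5 CPM in high iWAT cells, and to 15.4 and 11.3 CPM in iBAT. Of these markers, Pecam1, Cldn5 and Vwf were each under 2 CPM in all 4 deciles. Emcn, endomucin, was higher in Mgp-high iWAT cells, at 0.226 and 3.31 CPM (7 and 98 UMIs). Kdr was lower, at 5.32 and 1.93 CPM in iWAT and at 2.46 and 1.00 CPM in iBAT. Cells that met the endothelial gate had been left out beforehand, which by itself keeps these levels low. The part of endothelial cells in the Esm1 values was not tested.

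Aldh1a2, the retinaldehyde dehydrogenase that makes retinoic acid, stood at 9.86 and 46.8 CPM in iWAT and at 24.0 and 82.3 CPM in iBAT. Its log2 ratios were 2.25 (2.07 to 2.43) and 1.78 (1.70 to 1.86). Enpp1, the ectoenzyme that produces pyrophosphate, itself an inhibitor of mineral growth, stood at 12.8 and 40.9 CPM in iWAT and at 16.6 and 58.1 CPM in iBAT. Its log2 ratios were 1.67 (1.51 to 1.84) and 1.81 (1.71 to 1.90).

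Matrix genes were also among the shared genes. Mmp3, the matrix protease stromelysin 1, went from 417 to 1294 CPM in iWAT and from 147 to 530 CPM in iBAT. Col15a1, a collagen of basement membrane zones, went from 219 to 579 CPM and from 126 to 342 CPM. Both genes were past 2-fold in either library.

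Receptors and cytokines were also among them. Tnfsf15 and Tnfsf8 encode cytokines of the tumour necrosis factor family, with log2 ratios of 1.38 and 1.74 for Tnfsf15 and of 2.43 and 1.29 for Tnfsf8 (iWAT, then iBAT). Epha3, an ephrin receptor, had 1.56 and 1.38. Cmklr1, the receptor of the adipokine chemerin, had 1.25 and 1.35. Flt1, a receptor of vascular endothelial growth factor, and Cd53, a tetraspanin best known from leukocytes, were past 2-fold in both with smaller sizes.

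Fewer genes were lower with Mgp. Acta1, the skeletal alpha-actin gene, went from 131 to 43.6 CPM in iWAT and from 38.5 to 9.35 CPM in iBAT, log2 ratios of -1.59 (-1.68 to -1.50) and -2.04 (-2.17 to -1.92). Irx1, a homeobox transcription factor, had -1.47 and -1.22. Cemip, which takes part in hyaluronan breakdown, had -0.94 in both. Pgr, the progesterone receptor, had -1.20 and -0.65, and Arl4c, a small GTPase, -1.01 and -0.64. Over the iBAT class Pgr had 13.6 CPM, and it reached 20 CPM there in the low decile only. Tmem86a, Tgfb2 (a transforming growth factor), Maf (a transcription factor), Nabp1 and Znhit6 completed the 10, at -0.79 to -0.59 in iWAT and -0.84 to -0.54 in iBAT.

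The summed level of mural markers was higher in Mgp-high than in Mgp-low Pdgfra-positive cells. Of these markers, 1 reached 20 CPM in iWAT, within 2-fold, and 2 did in iBAT. There 1 of the 2 was past 2-fold (0.65% of all genes), Notch3, with 13.9 CPM over the class and 20 CPM reached in the high decile only. Mcam had log2 ratios of 0.12 in iWAT and 0.83 in iBAT. The 8 mural markers summed to 64.2 CPM in low and 116 CPM in high iWAT cells, and to 48.5 and 91.0 CPM in iBAT, where Notch3 stood at 10.9 and 26.4 CPM (iWAT 5.45 and 12.3 CPM). Abcc9, a potassium channel subunit of the list, had the widest difference in iWAT of the 7 with UMIs in both deciles, at 0.870 and 6.66 CPM (2.94, 2.35 to 3.57), and stood at 4.60 and 10.9 CPM in iBAT (1.25). Rgs5 stood at 1.39 and 3.21 CPM in iWAT and at 1.49 and 2.96 CPM in iBAT, against 269 and 177 CPM in mural-like cells, and Higd1b was under 0.1 CPM in all 4 deciles. Most of the iWAT sum was Cspg4, a surface proteoglycan that Pdgfra-positive cells also express. Among cells with no UMI of any mural marker, deciles held 717 cells in iWAT and 893 in iBAT. Their low deciles had median depths of 17261 and 24898 UMIs. There iWAT had 17 genes higher and 4 lower by 2-fold, and iBAT had 40 and 25. In those cells Esm1 had log2 ratios of 1.60 and 2.51, Aldh1a2 1.35 and 1.67, and Enpp1 1.04 and 1.89. Mmp3 had 1.14 and 2.33 and Col15a1 1.30 and 0.96. The part of mural-like cells in these values was not tested.

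**Figure D5:**
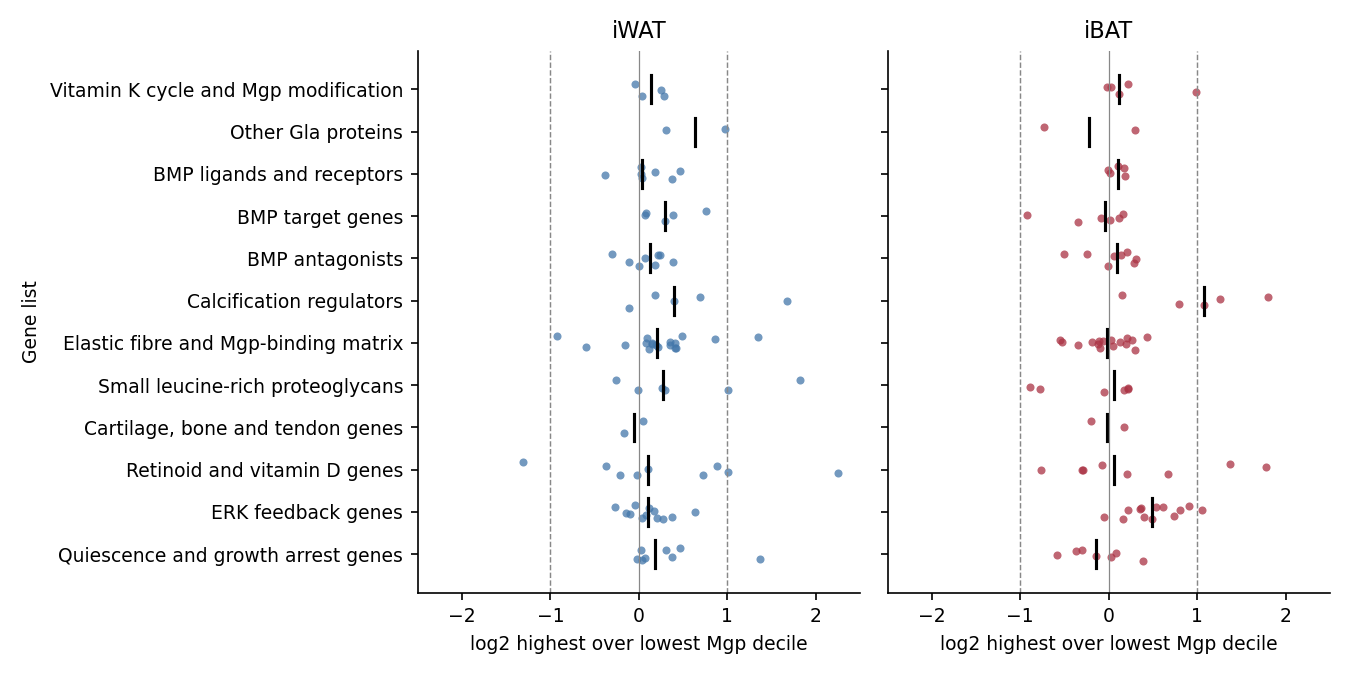
Log2 ratio between the highest and the lowest Mgp decile for the members of 12 gene lists that reached 20 CPM, in iWAT and iBAT, with each list's median as a black bar and 2-fold as dashed lines. The calcification regulators had the highest median in iBAT (1.08).

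Genes that regulate mineral deposition were among those higher with Mgp in iBAT. Of the 11 calcification regulators, 10 were listed and 5 reached 20 CPM. In iWAT Enpp1, at 16.8 CPM over the class, was the member past 2-fold and reached 20 CPM in the high decile only. In iBAT 3 of 5 were higher (0.65% of all genes) and the median was 1.08, beside -0.02 over all genes. Spp1, the mineral-binding protein osteopontin, stood at 2333 and 3064 CPM in iWAT (log2 0.39) and at 2199 and 5265 CPM in iBAT (1.26). Ank, which exports pyrophosphate or its precursor ATP from the cell, stood at 33.2 and 53.5 CPM (0.69) and at 118 and 250 CPM (1.08). The phosphate transporters Slc20a1 and Slc20a2 had 0.18 and -0.12 in iWAT and 0.79 and 0.16 in iBAT. Alpl, the phosphatase that breaks pyrophosphate down, stayed under 10 CPM in every decile, with 14 UMIs in low and 48 in high iWAT cells and 584 and 249 in iBAT.

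Of 7 genes of the vitamin K cycle and Mgp modification, 4 reached 20 CPM in iWAT and 5 in iBAT, and 0 of these were past 2-fold. Ggcx, the carboxylase that makes Gla, had 0.25 in iWAT and 0.12 in iBAT. The vitamin K epoxide reductases Vkorc1 and Vkorc1l1 had 0.28 and -0.04 in iWAT and 0.21 and 0.03 in iBAT, and Calu, a calcium-binding protein of the secretory pathway that inhibits carboxylation, had 0.04 and -0.02. Fam20c, the kinase of secreted proteins, went from 11.1 to 22.0 CPM in iBAT (0.99). It was named after its value was seen.

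Of 15 genes for other Gla proteins, 2 reached 20 CPM in either library and 0 of these were past 2-fold. Gas6, a ligand of TAM receptors, went from 19.5 to 38.3 CPM in iWAT (0.98) and from 255 to 153 CPM in iBAT (-0.73). Pros1, the anticoagulant protein S, had 0.30 in both. Prrg1 and Prrg2, membrane Gla proteins, stood at 12 to 18 CPM in every decile. Gas6 was the one abundant Gla protein gene whose direction differed between the libraries, and that difference was not tested.

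Of the 14 BMP ligands and receptors, 7 reached 20 CPM in iWAT and 5 in iBAT, and 0 of these were past 2-fold. Among them, the receptors Bmpr1a, Bmpr2, Acvr1 and Acvrl1 had log2 ratios of 0.02 to 0.18 in iWAT and -0.01 to 0.18 in iBAT. Below that level, the ligands Bmp4, Bmp5 and Gdf6, named after their values were seen, were past 2-fold higher in iBAT and Bmp7 lower. Bmp4 went from 4.70 to 12.5 CPM (1.41, 1.23 to 1.59), Bmp5 from 5.24 to 13.4 CPM (1.36, 1.18 to 1.53) and Gdf6 from 3.95 to 9.20 CPM (1.22, 1.02 to 1.42). In iWAT Gdf6 stood at 21.3 and 27.6 CPM (0.37), Bmp4 had 4 UMIs in low and 17 in high cells and Bmp5 8 and 11. Bmp3 had 11 and 28 UMIs in iBAT and 5 and 1 in iWAT. Bmp7 had 48 UMIs in low and 14 in high iBAT cells (-1.71, -2.69 to -0.83) and 9 and 2 in iWAT. Bmp6 had -0.61 in iWAT and -0.73 in iBAT. Of 10 target genes, 5 reached 20 CPM in iWAT and 6 in iBAT, 0 of them past 2-fold. In iBAT the median was -0.04, with 3 of the 6 above 0. Id3, Id2 and Id1, inhibitors of differentiation induced by BMPs, had 0.39, 0.08 and 0.29 in iWAT and 0.12, 0.01 and 0.17 in iBAT, and Smad7, a feedback inhibitor, had 0.06 and -0.09. Id4 was lower in the high iBAT cells (62.0 to 32.8 CPM, -0.92) and had 0.55 in iWAT below 20 CPM, and Smad6, an inhibitor like Smad7, had 0.76 in iWAT and -0.35 in iBAT. Of 12 antagonists 8 reached 20 CPM in either library with 0 past 2-fold, and Fstl1, Grem1 and Fst had -0.30 to 0.39 in iWAT and -0.24 to 0.31 in iBAT. Chrdl1, an antagonist below that level, had 63 UMIs in low and 222 in high iWAT cells, a log2 difference of 1.89 (1.48 to 2.31), and 221 and 248 in iBAT (0.23, -0.04 to 0.50). Nog, the antagonist noggin, had 5 and 3 UMIs in iWAT and 86 and 44 in iBAT (-0.90, -1.46 to -0.36).

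Of the elastic fibre list, 18 of 20 genes reached 20 CPM in iWAT and 16 in iBAT. Eln, the elastin gene, did so in the iWAT high decile only, at 13.8 and 35.0 CPM (1.34), with 6.61 and 14.5 CPM in iBAT (1.13, 0.97 to 1.29), and 0 of the others that reached 20 CPM were past 2-fold. The most abundant members, Fbln2, Lox, Fn1 and Mfap5, had 0.09 to 0.40 in iWAT and -0.55 to 0.29 in iBAT. Of the small leucine-rich proteoglycans, which coat collagen fibrils, 6 of 9 reached 20 CPM in either library. Prelp and Lum did so in the iWAT high decile only. Prelp stood there at 6.38 and 22.5 CPM (1.82) and had 0.22 in iBAT, and Lum at 12.6 and 25.2 CPM (1.01), with 2.49 and 5.69 CPM in iBAT (1.19, 0.94 to 1.45). Bgn, Dcn and Ogn had 0.27, 0.29 and -0.26 in iWAT and 0.18, 0.22 and -0.89 in iBAT.

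Cartilage, bone and tendon genes were mostly under 20 CPM. Of 13 genes, Sox9, the cartilage transcription factor, and Runx2, that of bone, reached 20 CPM, with 0.05 and -0.16 in iWAT and 0.17 and -0.20 in iBAT. Col10a1, the collagen of hypertrophic cartilage, had 7 UMIs in low and 93 in high iWAT cells (3.80, 2.70 to 5.15) and 47 and 178 in iBAT (1.98, 1.51 to 2.48). It was also among the 10 leading genes of the iWAT endothelial-like cells, as was Emcn, with 7 and 98 UMIs in the iWAT deciles and 65 and 78 in iBAT, and the part of such cells was not tested. Cilp, a cartilage matrix protein, had 12 and 103 UMIs in iWAT (3.17) and 260 and 123 in iBAT (-1.02). Tnmd, a tendon gene, had 531 and 168 UMIs in iBAT (-1.60) and 3 and 11 in iWAT. Sp7, a transcription factor of bone, had 479 and 187 UMIs in iBAT (-1.29) and 14 and 10 in iWAT. Col2a1, the cartilage collagen, had 2 and 0 UMIs in iWAT and 475 and 280 in iBAT (-0.70), with class levels of 0.0539 and 8.58 CPM.

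Retinoid genes besides Aldh1a2 were mixed. Of the 13 genes of the retinoid and vitamin D list, 9 reached 20 CPM in iWAT and 8 in iBAT, Aldh1a2 in the high decile only in iWAT. Crabp1 and Crabp2, which bind retinoic acid in the cell, had -1.31 and 1.01 in iWAT. In iBAT they had -0.29 and -0.25, Crabp2 at 3.29 and 2.76 CPM. The receptor gene Rarg had 0.10 and -0.08, and Vdr, the vitamin D receptor, had -0.76 in iBAT and stood at 9.41 and 13.2 CPM in iWAT.

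Feedback genes of the ERK pathway, which FGF receptors activate, had a median of 0.10 in iWAT (12 genes), beside -0.04 over all genes tested, and of 0.49 in iBAT (13 genes), beside -0.02. Etv1, a transcription factor, stood at 11.9 and 24.8 CPM in iBAT (1.06), where it reached 20 CPM in the high decile only, and at 3.77 and 6.62 CPM in iWAT (0.81). The others that reached 20 CPM were within 2-fold. Spred1, Egr1, Fosl1 and Spry2 had 0.74, 0.22, 0.16 and -0.06 there, and 0.21, 0.09, 0.03 and -0.27 in iWAT. Since treated and untreated cultures were pooled, the part of treatment in these values was not tested. Of the growth arrest list, 8 of 10 genes reached 20 CPM in iWAT and 7 in iBAT. Igf1, a growth factor, did so in iWAT in the high decile only, at 10.3 and 26.6 CPM (1.37), and had 0.38 in iBAT, and 0 of the others that reached 20 CPM were past 2-fold. Klf4, Gas1 and Cdkn1a had 0.46, 0.07 and -0.02 in iWAT and -0.30, -0.37 and -0.15 in iBAT, and Cdkn1b had 0.03 in both.

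The state genes were also read in the deciles. All 6 mitotic genes were below 0 in iWAT (median -0.17) and above 0 in iBAT (0.21), none past 2-fold, and 80.7% of high against 85.5% of low iWAT cells had a mitotic UMI after thinning, with 82.4% and 78.0% in iBAT. Of the committed preadipocyte genes, Col15a1 alone was past 2-fold, in both libraries. In iBAT the list's median was -0.11. Only the collagens Col15a1 and Col4a1 (0.43) were above 0 there, while Lpl, lipoprotein lipase, had -0.55, Pparg -0.29, the chemokine Cxcl14 -0.17 and the fatty acid-binding protein Fabp4 -0.06. Pparg, the master regulator of adipocyte formation, stood at 11.1 and 11.4 CPM in iWAT and at 42.7 and 35.0 CPM in iBAT, and Adipoq, the adiponectin gene, at 7.05 and 1.95 CPM in iBAT. Gdf10, a BMP-related factor, stood at 12.6 and 56.5 CPM in iWAT and at 18.2 and 20.1 CPM in iBAT. Its log2 ratios were 2.17 and 0.14, with 20 CPM reached in the high decile only. Of the list named for it, Meox2 had 2.48 and 0.47, Clec11a 1.70 and 0.93, and Fmo2 0.71 and 1.24. F3 had -0.32 and -0.54. Clec11a stayed under 20 CPM in every decile, Meox2 did in iWAT and Fmo2 in iBAT. Dpp4, a surface marker of progenitors, went from 25.01 to 11.02 CPM in iWAT, and Wnt2, a Wnt ligand of the same list, from 6.54 to 16.3 CPM (1.31). All 7 interferon genes were above 0 in iWAT and below 0 in iBAT, where 0 reached 20 CPM and their sum was 66.0 CPM in low and 40.9 CPM in high cells.

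Across the 13 class and library points with at least 50 cells, 9516 genes could be set beside Mgp by Pearson r of log2(CPM + 1). Each had at least 20 CPM in at least 1 point. The most similar in pattern were Prelp, a fibril-binding proteoglycan (0.974), Pde1a, a cyclic nucleotide phosphodiesterase (0.956), Ccn5, a matricellular protein (0.953), Hsd11b1, which regenerates active glucocorticoid (0.949), and Sned1, a matrix glycoprotein (0.943). In Pdgfra-positive cells Prelp had 8.53 CPM (iWAT) and 104 CPM (iBAT). The points share 2 libraries that differ in depth and in Mgp level. Prelp, Pde1a, Hsd11b1 and Sned1 reached 20 CPM at iBAT points only, in the library of higher Mgp. Their r across both libraries is therefore given by its value and read no further. Within libraries r was lower for Sned1 in iBAT (0.504, 7 points) than in iWAT (0.968, 6 points). Prelp likewise had 0.845 in iBAT and 0.963 in iWAT. Its iBAT mural-like level, 94.8 CPM, was below that of Pdgfra-positive cells. Of the 5, only Ccn5 had the higher r in iBAT (0.963 against 0.928).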

How the data were processed

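Each deposited matrix lists unnormalized counts, 1 per UMI, by gene and cell of a BD Rhapsody whole-transcriptome library, made by the authors with a commercial pipeline. Its version, multi-mapping and UMI settings are not given in the sources used here. The submitters' processing notes name build mm39 and Seurat 5.0.0. Cells with more than 200 and fewer than 7500 genes and under 30% mitochondrial UMIs were kept. Total counts were 503611913 UMIs (iWAT) and 815235820 UMIs (iBAT).

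Counts were summed over cells and scaled to 1000000 UMIs (CPM), with exact Poisson, conditional exact (ratios) or Clopper-Pearson (shares) intervals at 95%, which cover counting error only. No clustering and no doublet caller was run. Cells that met more than 1 class were left out, 94 in iWAT and 38 in iBAT. With the stricter gate such a cell could enter 1 class, so the stricter classes are not only the same cells trimmed. For deciles, ties were placed in seeded random order, and called means 2-fold.

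The gene, its lists and the rules were chosen with earlier results of these data known. Named genes were the 10 highest and 10 lowest by the smaller log2 ratio of both libraries with equal sign (predicted genes not described), the 5 most like Mgp, the 4 most abundant of each list and members past 2-fold in both. A few genes that this rule picks are not reported here. Alternatives changed the cell filter, gates, thinning (10000 or 5000 UMIs), averaging, groups, expression floor and fold. Ratios were tested on simulated data. Python 3.11.15, numpy 2.4.6, scipy 1.17.1, pandas 2.3.3 and matplotlib 3.10.9 were used.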

Additional observations from a re-analysis of the deposited data

Results flagged for a closer look

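Mgp UMIs were also counted in cells that entered no class, and free RNA was not separated from them. Those of more than 1 class were counted among all kept cells. The 218 iWAT cells removed by the cell filter held Mgp at 10.8 CPM, and the 421 removed iBAT cells held it at 494 CPM, 414 of them removed for their number of genes. Cells that met more than 1 class stood at 3.41 CPM in iWAT (94 cells) and at 796 CPM in iBAT (38 cells). They are given because the cells lie outside the comparisons between classes, and are not read as expression. In the iBAT cells of more than 1 class, 273 of the 628 Mgp UMIs were in 1 cell, and the level without it was 464 CPM.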

How the results depend on the processing

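The iWAT Pdgfra-positive level was 31.9 CPM with a Pdgfra gate of at least 2 UMIs, 30.3 as a mean over cells, and 30.8 and 30.02 with cells thinned to 10000 and 5000 UMIs. The iBAT level was 575 with the other cell filter (over 500 genes, under 15% mitochondrial UMIs, no upper gene limit), 589 with the stricter gate, 592 with all Pdgfra-positive cells, 588.5 as a mean over cells, and 589.6 and 588.4 with thinning. The ratio was 18.1 with the Pdgfra gate of 2, 20.1 with all Pdgfra-positive cells and 19.2 with thinning to 10000. The mural-like over Pdgfra-positive ratio in iWAT turned to 0.746 with the stricter gate, under which the mural-like class held 39 cells. The genes past 2-fold between deciles, 50 in iWAT and 58 in iBAT, became 14 in iWAT for quintiles (40 in iBAT), 139 and 156 with a floor of 5 CPM, 12 and 14 with a floor of 100 CPM, and 173 and 214 at 1.5-fold. The high iWAT quintile also held cells with 0 Mgp UMIs. The genes past 2-fold were 103 in iBAT among cells with no mitotic UMI. With alternatives chosen after seeing the data, they were 179 and 155 for the highest hundredth of cells against the lowest decile, and 21 in iWAT among cells with no mural marker UMI. All 320 values of the 20 ranked genes under the decile alternatives kept their direction, which their choice by size and equal sign favours, as did 1092 of 1200 values of the other named genes. No paired analysis was possible because each depot has 1 library. Precision is limited by 1 library a depot, by iWAT classes with 3 to 6 Mgp UMIs, and by the 84.4% of iWAT stromal cells at 0.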

Other observations

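The highest hundredth of Pdgfra-positive cells by Mgp per UMI, a group added after the data were seen, was set against the lowest decile. In iWAT 167 cells stood at 1239 CPM of Mgp. Prss35, a secreted serine protease homologue, went from 2.10 to 34.2 CPM, Gdf10 from 12.6 to 103 CPM, Igfbp5, an insulin-like growth factor-binding protein, from 97.1 to 750 CPM, and Meox2, a homeobox factor, from 2.42 to 26.8 CPM. In iBAT 250 cells stood at 8135 CPM of Mgp. Il1rn, the interleukin 1 receptor antagonist, went from 29.6 to 270 CPM, Hp, haptoglobin, from 21.5 to 137 CPM, Kng1, a kininogen, from 7.61 to 67.8 CPM, and Mmp13, a collagenase, from 2.88 to 28.6 CPM. Of the 2 groups compared, Prss35, Gdf10, Meox2, Kng1 and Mmp13 reached 20 CPM in the highest hundredth only, so their values are read no further. In that iWAT group Prss35 had 102 UMIs and Meox2 80. All genes given here were picked after their values were seen from the 12 with the highest ratios in each library. Not described are genes that ranked above some of them, such as Esm1, Tnfsf8 and Aldh1a2 in iWAT and Smim41, the highest in iBAT (3.86).

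Within each library alone, also added after the data were seen, the genes with the highest smaller r to Mgp across classes were Enpep, an aminopeptidase that cleaves angiotensin (0.969 in iWAT, 0.983 in iBAT), and Pde3a, a phosphodiesterase (0.968 and 0.972). Agtr1a, the angiotensin II receptor, had 0.962 and 0.967. These are descriptions over 6 and 7 points that include the mural-like cells. A gene needed 20 CPM in only 1 point of either library. The iWAT points include immune-like cells with 3 Mgp UMIs, Schwann-like cells with 4, and mural-like cells with 117 of 236 in 1 cell.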
